A study of Mus musculus with 15 samples.

Results

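The cells described here are striatal interneurons, picked among the 979 neurons of a single-cell RNA dataset of mouse striatum. A neuron was counted as an interneuron when its summed unique molecular identifiers (UMIs, counts of single captured RNA molecules) for Sst, Npy, Nos1, Pthlh and Cox6a2 reached at least 3 and also exceeded its sum for Ppp1r1b, Rgs9 and Pde10a, which are genes of projection neurons. The members were thus chosen by their own UMI counts of these 8 genes, whose levels in them are a description. The rule found 77 interneurons, against 902 other neurons, among the 5558 cells that passed a limit on mitochondrial RNA. The cells came from male C57BL/6J mice, an inbred strain, bought at 8 weeks of age and treated for 28 to 29 days after about 1 week of habituation. Of the 15 mice, 5 carried a haloperidol pellet, 5 ate food with olanzapine and 5 received placebo, each mouse giving a library of its own. Haloperidol is a typical antipsychotic that blocks dopamine D2 receptors, and olanzapine is an atypical one that blocks dopamine and serotonin receptors. The route of delivery differed between these drugs, so drug and route cannot be told apart.

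The striatum is built almost wholly of GABAergic projection neurons, which send its output along a direct and an indirect pathway. A small minority of its neurons are interneurons, whose axons stay inside the striatum and shape the firing of the projection neurons. One well known kind makes the peptides somatostatin (Sst) and neuropeptide Y (Npy) together with neuronal nitric oxide synthase (Nos1), which produces the gas nitric oxide. Another kind fires fast and makes parvalbumin (Pvalb), and in mouse striatum it belongs to a wider group marked by Pthlh, the gene of parathyroid hormone-related protein. Cholinergic interneurons, which release acetylcholine, and interneurons that express tyrosine hydroxylase are further kinds, and the rule contains no gene of either.

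The libraries held 79 to 1184 cells and 16 to 161 neurons after filtering, although the labels give 500 cells loaded per mouse. Placebo 5 shared 101 cell barcodes with placebo 2 and 110 with placebo 3, while any other of the 103 pairs of libraries shared at most 2. Of the 211 shared cells of placebo 5, 210 carried the same cell class in both libraries. Among its 4 interneurons 2 were shared, with 113 Sst and 118 Npy UMIs against 393 and 496 under the same barcode in placebo 2, and with 147 Sst and 82 Npy UMIs against 400 and 259 in placebo 3. Without the shared cells of placebo 5, 75 interneurons remained, 16 of them from placebo mice. Free RNA was also present: 3.79% of 1611 astrocytes held an Sst UMI and 4.16% an Npy UMI at a median depth of 2226 UMIs, against 4.88% and 6.10% of the other neurons at a median of 3173.5 UMIs. Single Sst or Npy UMIs were therefore read as background in any cell.

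Most interneurons lay far above the threshold. Their sum of the 5 genes had a median of 231 UMIs and reached 1880, with 70 cells at 12 or more, 3 cells between 4 and 7, and 4 cells at exactly 3. Just outside the rule, 10 neurons held 2 UMIs of the 5 genes and fewer of the projection neuron genes, and 3 neurons held at least 3 but not more than their projection neuron sum. In the 77 interneurons the projection neuron sum was at most 6 and was 0 in 25 cells, against a median of 8 in the other neurons. The 77 cells came from 14 mice, with 22 in haloperidol, 37 in olanzapine and 18 in placebo mice. Olanzapine 5 alone gave 20 of them, and haloperidol 2 gave 0 of its 16 neurons.

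**Figure D1:**
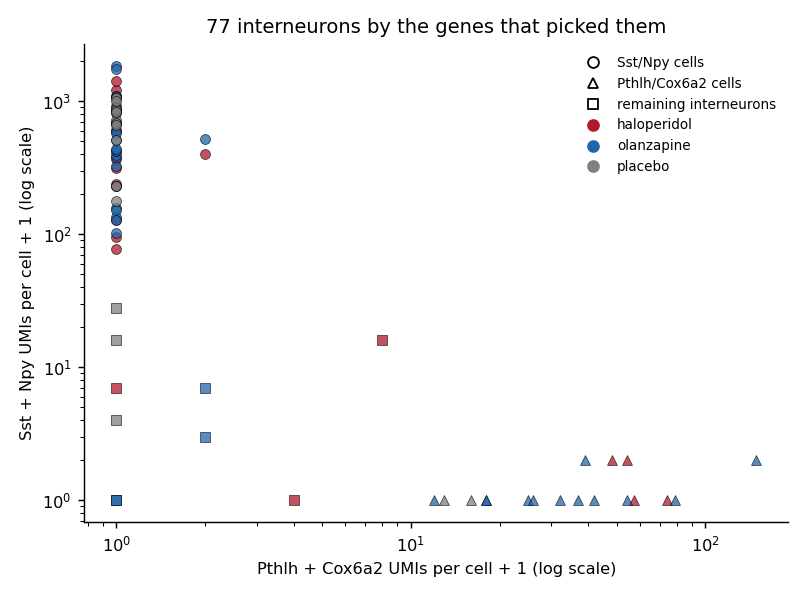
Each point is 1 of the 77 interneurons, with its Pthlh + Cox6a2 UMIs plus 1 on the x axis and its Sst + Npy UMIs plus 1 on the y axis, both on log scales. The 49 Sst/Npy cells (circles) hold at most 1 UMI of Pthlh + Cox6a2, and the 18 Pthlh/Cox6a2 cells (triangles) hold at most 1 UMI of Sst + Npy. Colours give the drug, and squares are the remaining 10 cells.

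The interneurons separated by these genes into a large and a smaller set, drawn with limits of 10 UMIs that were chosen after the values were seen. These sets are descriptions and carry no test. In 49 cells both Sst and Npy stood at 10 UMIs or more, and they are called Sst/Npy cells. In 18 other cells Pthlh and Cox6a2 together reached 10 UMIs and exceeded the sum of Sst, Npy and Nos1, and they are called Pthlh/Cox6a2 cells. The remaining 10 cells met neither limit. Haloperidol mice gave 15 Sst/Npy, 4 Pthlh/Cox6a2 and 3 remaining cells. Olanzapine mice gave 21, 12 and 4 of them in the same order, and placebo mice 13, 2 and 3. Of the Pthlh/Cox6a2 cells, 7 came from olanzapine 5.

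In the Sst/Npy cells the peptide transcripts took up a large part of the cell's RNA. Sst ranged from 39 to 937 UMIs with a median of 309, and Npy from 32 to 1261 with a median of 189. Together they made up a median of 6.69% of all UMIs of a cell, from 1.44% to 22.5%. Pooled over the 49 cells, Sst stood at 41821 CPM (UMIs scaled to a common library total, counts per 1e6) and Npy at 34468 CPM, against 12.9 and 18.3 CPM in the other neurons (Sst lies on chromosome 16 at 23889573 to 23891342, Npy on chromosome 6 at 49822710 to 49829507, GRCm38). Sst exceeded Npy in 32 of the 49 cells, with a ratio of 0.379 to 5.21 and a median of 1.43. The CPM of Sst and of Npy was correlated across the 49 cells (Spearman's rho 0.64), and both were lower in deeper cells (rho with depth −0.33 and −0.32).

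Nos1, on chromosome 5 at 117866839 to 117958840, was far less abundant than the peptides and varied widely. It was detected in 36 of the 49 cells, with a median of 3 and a maximum of 72 UMIs, and 20 cells held 10 or more. Its CPM per cell went with that of Lhx6, a transcription factor of interneurons born in the medial ganglionic eminence (rho 0.62), and against that of Resp18, a protein of neuroendocrine secretory granules (rho −0.69). Nos1 and Lhx6 CPM were higher in deeper cells (rho 0.63 and 0.44) and Resp18 CPM lower (rho −0.58), and the part of depth in these relations was not tested. When every cell was thinned to 1000 UMIs, 24 of the 49 cells still held a Nos1 UMI, against 1 of 857 other neurons deep enough to thin.

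Further genes known from this type were present in the same cells. Tacr1, the substance P receptor, was detected in 46 of the 49 Sst/Npy cells and pooled to 475 CPM, against 18.9 CPM in the other neurons. Chodl, which marks Nos1 interneurons also in mouse cortex, had a UMI in 29 of the 49 cells, and 0 UMIs in the 18 Pthlh/Cox6a2 cells, the 10 remaining cells and the 902 other neurons. That count of 0 of 902 allows a share of up to 0.333% of cells with a UMI, for counting error only. Crhbp, which encodes a protein that binds corticotropin-releasing hormone, had a UMI in 28 of the 49 cells. Resp18 was detected in all 49, from 2 to 87 UMIs, at 3261 CPM against 179 CPM in the other neurons. Lhx6 and Sox6, which acts downstream of Lhx6, were each detected in 35 of the 49 cells.

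The genes of GABA synthesis were low in the Sst/Npy cells. Gad1, an enzyme that makes GABA, had 0 UMIs in 27 of the 49 cells and pooled to 176 CPM, against 260 CPM in the other neurons. Gad2, its second form, stood at 120 CPM against 387 CPM. Slc32a1, which loads GABA into vesicles, was detected in 42 of the 49 cells and stood at 465 CPM, against 675 CPM in the other neurons.

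Within the Sst/Npy cells, Tac1, which encodes substance P and is otherwise a gene of direct-pathway neurons, was present in some cells and absent from most. It held 6 to 105 UMIs in 11 cells, 1 to 4 in 2 cells and 0 in 36. The limit of 5 UMIs was chosen after the values were seen. The 11 cells came from 4 mice, with 4 cells from haloperidol, 6 from olanzapine and 1 from placebo mice. All 4 haloperidol cells came from haloperidol 3, and most of the 6 olanzapine cells from olanzapine 5. Sst was close between the Tac1-positive and the remaining Sst/Npy cells, at 45243 against 41002 CPM, while Npy stood at 19153 against 38132 CPM and Nos1 at 821 against 1603 CPM. Chodl was detected in 2 of the 11 cells with Tac1 and in 27 of the other 38. Resp18 was higher with Tac1, at 4765 against 2901 CPM. The 11 cells were shallower, with a median of 4280 against 7701.5 UMIs, and the parts of depth and of mouse were not tested.

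The Pthlh/Cox6a2 cells had another profile. Pthlh (chromosome 6, 147252109 to 147264013) had a median of 9.5 and at most 75 UMIs, and Cox6a2 (chromosome 7, 128205435 to 128206366), the heart and muscle form of a subunit of cytochrome c oxidase, had a median of 21.5 and at most 73 UMIs. Kit, a receptor tyrosine kinase, was detected in 17 of the 18 cells at 1345 CPM, against 10.2 CPM in the Sst/Npy cells and 13.5 CPM in the other neurons. Pvalb was detected in 10 of the 18 cells, from 1 to 27 UMIs, and in 0 of the 49 Sst/Npy cells. Opn3, which encodes an opsin, was detected in 15 of the 18 cells, and Kcnc1, a potassium channel subunit of fast-firing neurons, stood at 712 CPM against 83.3 CPM in the other neurons. Maf, a transcription factor of interneurons of the medial ganglionic eminence, was detected in 11 of the 18 cells and in 4 of the 49 Sst/Npy cells.

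Of the GABA genes, Gad1 stood at 1039 CPM in the Pthlh/Cox6a2 cells and 176 CPM in the Sst/Npy cells, and it was higher in 6 of the 8 mice that gave cells of both sets. Gad2 stood at 456 against 120 CPM. Slc32a1 stood at 940 against 465 CPM, but was higher in only 5 of those 8 mice and lower in 3. Resp18 was lower, at 804 against 3261 CPM, in 8 of 8 mice. The mitochondrial share of a cell's UMIs had a median of 8.40% in the Pthlh/Cox6a2 cells and 2.97% in the Sst/Npy cells, and was higher in 6 of those 8 mice. Median depths were close, at 6130 and 7060 UMIs.

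Not every cell of these sets fitted its set's main profile. One Pthlh/Cox6a2 cell, from haloperidol 3, held 52 Cox6a2 UMIs and 1 Pthlh UMI together with 29 UMIs of Slc5a7, the choline transporter of cholinergic neurons, and 8 of Chat, which makes acetylcholine. Among the remaining 10 cells, a second cell of haloperidol 3 held 50 Slc5a7 UMIs and passed the rule at exactly 3. A cell of olanzapine 2 was the deepest, at 40783 UMIs, and passed with 3 Nos1 UMIs beside 35 of Gad1 and 49 of Gad2. Scrublet called it a doublet, as it did 38 of the 128 cells of olanzapine 2 and 4 of the 77 interneurons. A cell of olanzapine 4 held 3 Nos1 UMIs beside 18 of Trh, the gene of thyrotropin-releasing hormone, and 4 of Th. A cell of placebo 1 held 15 Npy UMIs beside 14 of Slc17a7, a glutamate transporter of cortical neurons, and 93 of Cck. A cell of placebo 5 held 27 Sst and 24 Tac1 UMIs. One Sst/Npy cell of olanzapine 3 held 108 UMIs of the 7 microglia markers, where no other interneuron held more than 7.

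**Figure D2:**
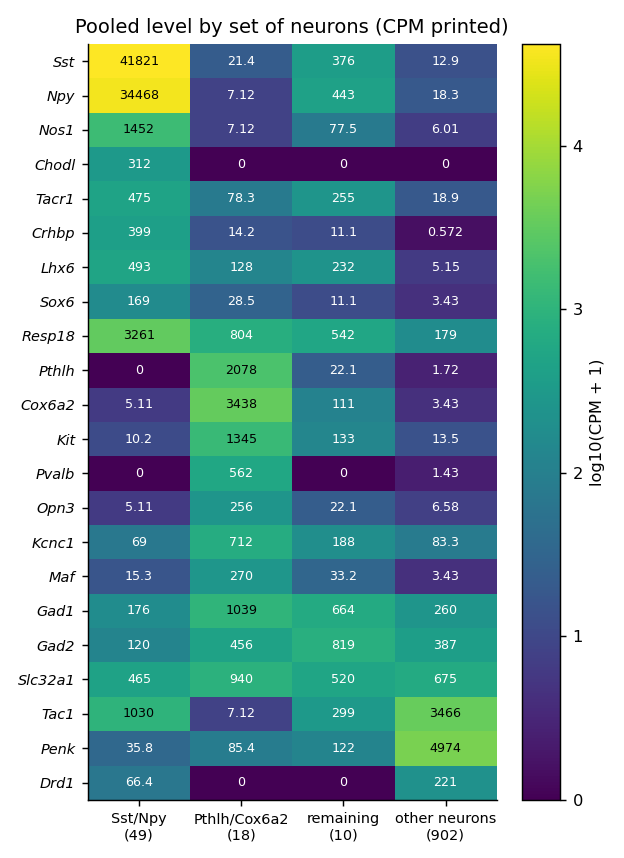
Pooled level of 22 genes (rows) in the 49 Sst/Npy cells, the 18 Pthlh/Cox6a2 cells, the remaining 10 interneurons and the 902 other neurons (columns); colour is log10(CPM + 1) and the printed value is CPM. Sst reads 41821 CPM in the first column and 12.9 CPM in the last, while Kit reads 1345 CPM in the second column and 10.2 CPM in the first.

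To see which other genes set the interneurons apart, counts were summed per mouse over interneurons and over other neurons. Mice with at least 5 cells of each entered, which were haloperidol 3 and 4, olanzapine 3, 4 and 5 and placebo 4. They gave 55 interneurons with 459197 UMIs, against 584 other neurons with 2293508 UMIs. The rule compared the same cells, so its 8 genes were left out and the rest are given as descriptions with no p-value. A call below means an adjusted p under 0.05 in edgeR's quasi-likelihood fit with mouse as a block. Of 2421 genes, 413 (17.1%) were called higher and 480 (19.8%) lower in interneurons, and in 16.9% the 6 interneuron values did not overlap the 6 of the other neurons. Calls were this frequent over all genes, so a called gene is not by that alone particular to interneurons.

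Resp18 (chromosome 1, 75272197 to 75278415) had 2146 to 4373 CPM in the interneurons of the 6 mice and 117 to 386 CPM in their other neurons. The values did not overlap, and the log2 fold change was 3.82 ± 0.24 (SE). Chodl had 94 UMIs in interneurons and 0 in other neurons, which makes it at least 156-fold higher in interneurons, with 3 counts as the floor over the pooled neurons. Crhbp had 128 UMIs in interneurons and 2 in other neurons, a ratio with a counting interval of 86.7 to 2668. Tacr1 had 169 to 978 CPM in interneurons and 0 to 42.8 CPM in other neurons, with a log2 fold change of 4.66 ± 0.40 (SE). Its highest value, in haloperidol 3, included 11 and 20 UMIs in the 2 cells with cholinergic genes, against 18 in its 5 Sst/Npy cells. Resp18 was higher in interneurons in 6 of 6 mice. Chodl, Crhbp and Tacr1 were so low in other neurons that they passed the filter on low counts only through interneurons. Their agreement over mice follows from that and is not read as support.

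Genes outside the lists of known interneuron genes also stood high. They were named for the largest rises in this fit. Several, such as Mxra7, Gng2 and Nxph1, were too low in other neurons to pass the filter on low counts without interneurons. Agreement over mice follows in part from both and is not read as support. Nxph1, a secreted ligand of neurexins, averaged 583 ± 321 CPM in interneurons and 31.7 ± 30.2 CPM in other neurons (SD, n = 6 mice). Fxyd6, a modulator of the sodium pump, averaged 2119 ± 587 and 169 ± 138 CPM. Cygb, the oxygen-binding protein cytoglobin, averaged 844 ± 340 and 63.9 ± 25.8 CPM. Mxra7, Lhfpl5, Olfm2, Gng2 (a G protein subunit), Col25a1 (a membrane collagen), Coprs and Camk1 (a calcium-dependent kinase) had log2 fold changes from 2.68 for Camk1 to 4.77 for Mxra7. Crtac1 was higher in 5 of 6 mice, with a log2 fold change of 3.11 ± 0.84 (SE).

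Genes of peptide processing and secretory granules differed among themselves. Of 11 tested members of 12 on the list, 4 were called higher and 1 lower, beside 17.1% and 19.8% of all genes tested. The median log2 fold change was 0.32 in the list and 0.02 over all genes tested. Those called higher were Resp18, the granule proteins Scg2 (3574 ± 2673 CPM in interneurons and 1177 ± 265 CPM in other neurons) and Scg3 (log2 fold change 1.41 ± 0.30), and Pam, the enzyme that amidates peptides such as Npy. Pam averaged 2362 ± 1615 CPM in interneurons and 441 ± 111 CPM in other neurons (SD, n = 6 mice). It ran from 628 to 4178 CPM over the interneurons of the 6 mice, against 278 to 574 CPM in their other neurons. Pcsk2, a protease that cuts peptide precursors, was lower, at 354 ± 100 against 1338 ± 332 CPM. The other 6 members had log2 fold changes from −0.15 to 0.55 and were not called.

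The genes that make GABA and load it into vesicles were not called, with log2 fold changes of 0.43 ± 0.44 for Gad1, −0.60 ± 0.24 for Gad2 and −0.28 ± 0.21 for Slc32a1 (SE). Gad2 was called lower in 8 of 18 alternatives, such as at least 3 interneurons per mouse and RLE scaling. Gad1 had 757 and 1016 CPM in the interneurons of olanzapine 5 and olanzapine 4, which hold 7 and 4 Pthlh/Cox6a2 cells, and 139 CPM in olanzapine 3, which holds 0. The sign of Gad1 turned to −0.03 without olanzapine 5.

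Of the nitric oxide signalling list 4 of 12 genes were tested. Genes low in interneurons, such as Dlg4 below, could pass the filter on low counts through other neurons alone, so no count of calls is given. The median log2 fold change of the 4 tested genes was −0.57, beside the all-gene median given for the peptide list. With 4 genes tested, no trait of the list is read from these values. Pde1a, a calcium-dependent phosphodiesterase, was called higher (log2 fold change 0.78 ± 0.31, SE), and its call was lost in several alternatives, DESeq2 among them. Gucy1b1, a subunit of the guanylate cyclase that senses nitric oxide, averaged 119 ± 43.4 CPM in interneurons and 277 ± 58.8 CPM in other neurons. Dlg4, the postsynaptic scaffold PSD-95 that binds neuronal nitric oxide synthase, was lower too, with a log2 fold change of −1.48 ± 0.31 (SE). It had 29 UMIs in interneurons and 388 in other neurons. Among sodium and potassium channels Scn2a, Scn2b, Scn3a, Kcna1 and Kcnd2 were called lower, with log2 fold changes from −0.73 to −1.88. Kcna1 had 20 UMIs in interneurons and 396 in other neurons, and Scn3a 29 and 320. Such genes could pass the filter on low counts through other neurons alone, so no count of calls is given for this list. Kcnc1, high in the Pthlh/Cox6a2 cells, was not called over the pooled interneurons (log2 fold change 1.35 ± 0.57, SE). It was called higher in 7 of 18 alternatives, among them the fit without a mouse block and those without olanzapine 3 or placebo 4.

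Genes of projection neurons were lower, which the rule in part required. Genes at or near 0 in interneurons entered the fit only through their level in other neurons, so no count of calls is given for these lists. Penk, the enkephalin precursor of indirect-pathway neurons, had 0 to 98.1 CPM in interneurons and 3107 to 7714 CPM in other neurons. Adora2a, the adenosine receptor of the same neurons, had 0 UMIs in interneurons and 998 in other neurons, so it was at least 66.6-fold lower. Scn4b, Gpr6, Rasgrp1, Ptk2b and Rxrg likewise had 0 UMIs in the 55 interneurons. Meis2, a transcription factor of projection neurons, had a log2 fold change of −6.48 ± 0.37 (SE), and Drd1, the dopamine receptor of direct-pathway neurons, of −2.74 ± 0.36.

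Markers of other cells were measured beside these values. The 8 astrocyte markers summed to 1464 CPM in interneurons and 792 CPM in other neurons, with Aqp4 and Gfap at 0 UMIs in interneurons and with Clu and Mt3, the pair that passed the filter on low counts, both called higher. The 7 microglia markers summed to 236 CPM in interneurons and 62.4 CPM in other neurons, where 108 of the 147 UMIs lay in the single cell of olanzapine 3 described above. Of 9 tested general neuronal genes, Stmn2 and Stmn3 were called higher and 3 lower, Map2 and Rbfox3 among them. Over all genes tested 17.1% were called higher and 19.8% lower. Rbfox3 had 34 UMIs in interneurons and 408 in other neurons, so it could pass the filter on low counts through other neurons alone. No trait of the general neuronal genes is read from these counts. The immediate early genes Junb and Egr1 were lower, with log2 fold changes of −2.37 ± 0.39 and −1.78 ± 0.35 (SE), and the other 16 members did not pass the filter on low counts. Junb had 26 UMIs in interneurons and 671 in other neurons, and Egr1 21 and 352, so both could pass that filter through other neurons alone. The part of these cell markers and genes in the differences between interneurons and other neurons was not tested.

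**Figure D3:**
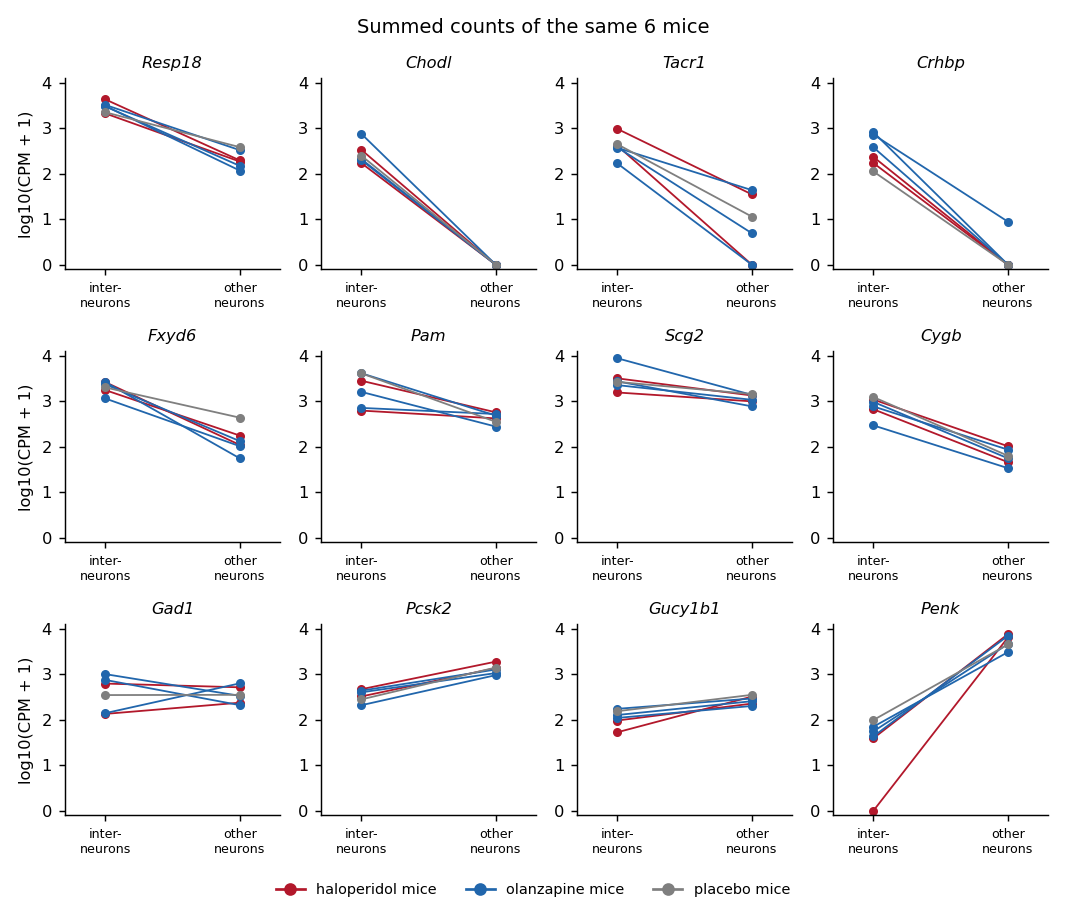
Level of 12 genes in summed counts of interneurons (left points) and other neurons (right points), as log10(CPM + 1), with a line for each of the 6 mice coloured by drug. Resp18 lies higher in interneurons in 6 of 6 mice, while the lines of Gad1 cross. Chodl, Tacr1 and Crhbp also lie higher, but passed the filter on low counts only through interneurons. Penk lies lower, and could pass that filter through other neurons alone.

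The share of interneurons among neurons was then compared between drugs, which the rule did not use. It was 12.9, 0, 4.97, 7.23 and 18.2% in the 5 haloperidol mice. The 5 olanzapine mice had 11.8, 2.70, 6.03, 8.43 and 12.7%, and the 5 placebo mice had 5.97, 2.94, 6.25, 17.9 and 4.76%. The groups overlapped widely, and single mice rest on few cells: the 0 of 16 neurons in haloperidol 2 allow a share of up to 18.8% by the floor of 3 counts, and up to 20.6% by the Clopper-Pearson interval drawn in the plot of shares. Means were 8.66 ± 7.06% in haloperidol mice, 8.33 ± 4.13% in olanzapine mice and 7.57 ± 5.94% in placebo mice (SD, n = 5 each). The difference from placebo was 1.08 percentage points for haloperidol (exact two-sided permutation test, p = 0.81, adjusted p = 0.937) and 0.761 for olanzapine (exact p = 0.81, adjusted p = 0.937). Haloperidol and olanzapine mice differed by 0.322 points (exact permutation test, p = 0.937, adjusted over the 3 comparisons 0.937). All differences were smaller than the spread between mice, and both drugs were set against the same placebo mice.

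**Figure D4:**
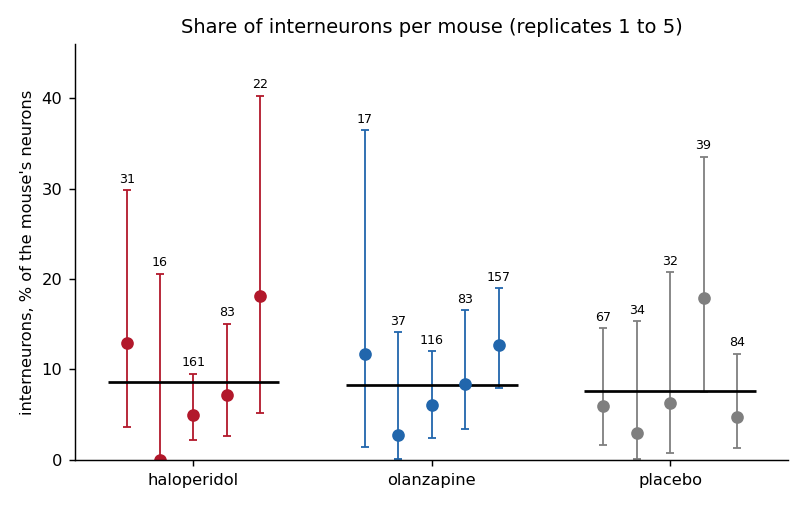
Share of interneurons among the neurons of each mouse, in percent, for haloperidol, olanzapine and placebo mice (replicates 1 to 5 from left to right in each). Bars are 95% Clopper-Pearson intervals that cover counting error only, numbers give the neurons of the mouse and black lines are group means, at 8.66, 8.33 and 7.57%.

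Cells were too few for the planned test of genes within interneurons, since at least 5 interneurons were found in only 2 haloperidol, 3 olanzapine and 1 placebo mice. With at least 3 interneurons per mouse, 4 haloperidol, 3 olanzapine and 3 placebo mice could be compared over 936 genes. In each comparison 0 genes (0%) passed an adjusted p of 0.05 in edgeR, and 0 did in DESeq2. An unadjusted p under 0.05 was reached by 41 genes (4.38%) for haloperidol against placebo, 28 (2.99%) for olanzapine against placebo and 27 (2.88%) for haloperidol against olanzapine. In DESeq2 those counts were 36, 21 and 18. With the shared cells of placebo 5 left out, that mouse drops out, and 0 genes were called with the 2 placebo mice left.

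The genes of the rule are described by drug with no test, since their values picked the cells. Sst stood at 36134 to 92954 CPM in the interneurons of haloperidol mice, 20971 to 51461 CPM in olanzapine mice and 47486 to 68733 CPM in placebo mice. The means were 55169 ± 26166, 37732 ± 15470 and 54922 ± 11972 CPM in the same order (SD, n = 4, 3 and 3). Npy averaged 41717 ± 14288 CPM in haloperidol, 40003 ± 9789 CPM in olanzapine and 53534 ± 31748 CPM in placebo mice. Both genes overlapped between all groups. Cox6a2 ranged from 0 to 2307 CPM in haloperidol mice, from 40.0 to 2346 CPM in olanzapine mice and from 0 to 233 CPM in placebo mice. Pthlh ranged from 0 to 1718 CPM in haloperidol and from 40.0 to 1909 CPM in olanzapine mice, and was at 0 in the 3 placebo mice compared. Mice differed in the Pthlh/Cox6a2 cells they gave, which were 0 in haloperidol 5, olanzapine 3, placebo 1 and placebo 5. In these sums, fewer cells of a type and less RNA per cell cannot be told apart.

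The genes with the smallest p in interneurons were Dner for haloperidol against placebo, Crhbp for olanzapine against placebo and Tuba1a for haloperidol against olanzapine. Dner, a transmembrane ligand of Notch receptors, had 1305, 1274, 759 and 587 CPM in haloperidol mice, against 284, 171 and 414 CPM in placebo mice (log2 fold change 1.99 ± 0.55, adjusted p = 0.608 in edgeR). Dner and the genes below were picked for a small p, so a lack of overlap between groups follows in part from that choice. How many of all genes tested lacked overlap was not counted. Crhbp had 840, 953 and 443 CPM in olanzapine mice, against 0, 124 and 311 CPM in placebo mice (log2 fold change 2.49 ± 0.72, adjusted p = 0.996 in edgeR). Tuba1a, a tubulin, had 293 to 394 CPM in haloperidol mice and 591 to 3079 CPM in olanzapine mice (log2 fold change −2.08 ± 0.53, adjusted p = 0.253 in edgeR). Tacr1 averaged 949 ± 334 CPM in haloperidol mice and 356 ± 139 CPM in olanzapine mice (adjusted p = 0.988 in edgeR, n = 4 and 3). Haloperidol 3 was highest at 1181 CPM. There 2 cells with cholinergic genes held 11 and 20 Tacr1 UMIs, while its 5 Sst/Npy cells held 18 together. Pvalb had 0, 660 and 401 CPM in olanzapine mice and was at 0 in the 3 placebo mice compared, while a cell of placebo 3, which had too few interneurons to enter, held 1 Pvalb UMI. None of these differences passed the correction. Beside them, the astrocyte markers summed to 799 to 1254 CPM in haloperidol, 1483 to 1787 CPM in olanzapine and 951 to 1922 CPM in placebo interneurons. The microglia markers summed to 28.7 to 104 CPM in haloperidol, 33.3 to 2806 CPM in olanzapine and 21.2 to 192 CPM in placebo interneurons. The highest was olanzapine 3, which also had the highest Tuba1a. The part of either marker list was not tested.

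The same genes were finally measured in all neurons of a mouse, with no rule that picks cells. Over 4486 genes and 5 mice per group, 0 genes (0%) passed in any comparison in edgeR or DESeq2. An unadjusted p under 0.05 was reached by 163 genes (3.63%) for haloperidol against placebo, 333 (7.42%) for olanzapine against placebo and 158 (3.52%) for haloperidol against olanzapine. In DESeq2 those counts were 119, 294 and 110.

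Sst averaged 5244 ± 4907 CPM over all neurons of haloperidol mice, 3869 ± 2898 CPM of olanzapine mice and 6038 ± 5925 CPM of placebo mice (SD, n = 5 each). Placebo 4 stood at 16567 CPM, above the other placebo mice at 2352 to 4220 CPM, and haloperidol 2 at 0. The log2 fold change of Sst was −0.21 ± 1.18 (SE) for haloperidol against placebo and −0.65 ± 1.18 for olanzapine against placebo, and without placebo 4 these were 0.62 and 0.17. Npy averaged 3873 ± 2969, 3295 ± 1910 and 4348 ± 2043 CPM in haloperidol, olanzapine and placebo mice. Nos1 averaged 176 ± 155, 92.9 ± 92.9 and 218 ± 357 CPM in the same order, with 839 CPM in placebo 4.

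Pthlh and Cox6a2 were higher in the averages of both drugs than in placebo, with overlap and without passing the test. Pthlh had 240, 0, 5.02, 171 and 0 CPM in haloperidol mice and 37.0, 0, 14.2, 75.2 and 273 CPM in olanzapine mice, against 0, 0, 73.7, 0 and 0 CPM in placebo mice. Its log2 fold change was 3.12 ± 1.87 (SE) for haloperidol and 3.43 ± 1.73 for olanzapine, with adjusted p of 0.999 and 0.696 in edgeR. Single mice decided these values: without olanzapine 5 the log2 fold change for olanzapine was 1.85. Without placebo 3 the placebo mice were at 0, so the size of a fitted fold change cannot be read. Over the fits that left out 1 mouse it ran from 2.27 to 7.35 for haloperidol and from 1.85 to 7.65 for olanzapine. Cox6a2 averaged 120 ± 126 CPM in haloperidol, 151 ± 145 CPM in olanzapine and 34.3 ± 42.3 CPM in placebo mice. Its log2 fold changes against placebo were 2.11 ± 1.34 and 2.35 ± 1.29 (SE).

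Gad1, which projection neurons express as well, averaged 363 ± 119 CPM in haloperidol mice, 447 ± 130 CPM in olanzapine mice and 239 ± 62.7 CPM in placebo mice. For olanzapine against placebo its log2 fold change was 0.83 ± 0.27 (SE), with an adjusted p of 0.584 in edgeR. Resp18 averaged 672 ± 235, 405 ± 265 and 608 ± 281 CPM in haloperidol, olanzapine and placebo mice. Of the peptide processing list 0 of 11 tested members were called in either comparison with placebo, with median log2 fold changes of −0.26 for haloperidol and −0.42 for olanzapine beside −0.01 and 0.01 over all genes tested.

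**Figure D5:**
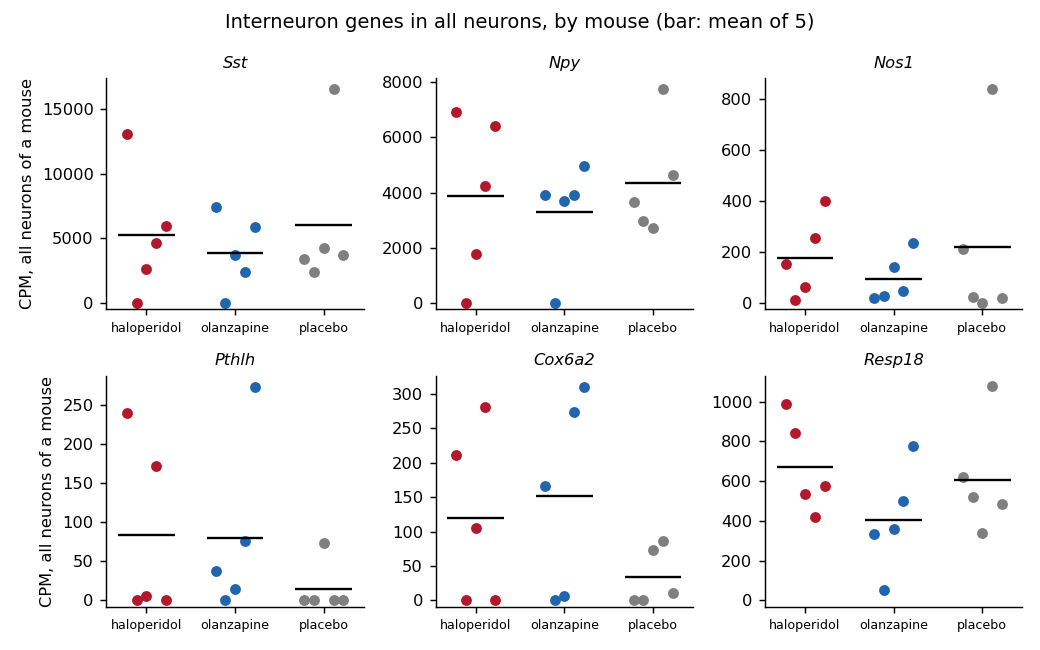
CPM of 6 interneuron genes summed over all neurons of a mouse, for haloperidol, olanzapine and placebo mice; each point is a mouse and each bar the mean of 5. Sst of placebo 4, at 16567 CPM, stands above the other placebo mice, and the mice of the 3 groups overlap in every panel.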

How the data were processed

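Single-cell RNA was captured from the striatum of 15 mice with 10x Chromium 3' v2 chemistry. The authors deposited 1 table of UMI counts, not normalized, for 15932 genes in 5581 cells, with a cell class for each cell. Cell Ranger, Seurat and the build mm10 are named per the submitters' processing notes, with versions not given in the sources used here.

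Cells with more than 20% mitochondrial UMIs were removed (23 cells). Doublets were kept in the reported values and removed with Scrublet in an alternative. Counts were summed per mouse and set of neurons. Libraries held 236090 to 4321376 UMIs. Genes were tested with edgeR 4.0.16 (quasi-likelihood F test, filterByExpr, TMM scaling, R 4.3.3) and Benjamini-Hochberg adjustment, with DESeq2 1.42.0 as an alternative. CPM per mouse in a tested comparison is TMM-scaled, and CPM pooled over cells is not. The SE is the log2 fold change divided by the root of F. For interneurons against other neurons, mouse was a block because both sums came from the same animal. The drug comparisons had none, since replicate numbers only name mice. Shares were compared with exact permutation tests (scipy 1.17.1). Scripts were tested on simulated data.

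The drug comparisons within interneurons were planned for mice with at least 5 interneurons and were run at 3 after the counts were known. Genes were named as members of lists of cell types and pathways, as the largest called fold changes (up to 15 higher and 10 lower) and as the smallest p by drug. The members and lists were chosen with earlier results of these data known. Gene positions are RefSeq's on GRCm38, where 14979 of the 15932 symbols were found. P-values measure the spread between mice, and intervals and floors cover counting error only. Some results are not reported here.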

Additional observations from a re-analysis of the deposited data

Results flagged for a closer look

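Single mice stood far from the others of their group in 6 of 21 groups of 5 tested, by a gap test at the 95% level, where chance flags about 1 in 20 groups of independent, evenly spread values. These groups are not independent, since the flags of placebo 4 rest on the same cells, and Pthlh was at 0 in several mice. In placebo 4 the share of interneurons among neurons was 17.9%, and summed over all neurons Sst stood at 16567 CPM and Nos1 at 839 CPM. Npy was at 0 CPM in olanzapine 2. Pthlh stood at 273 CPM in olanzapine 5, which gave 7 of the 18 Pthlh/Cox6a2 cells, and at 73.7 CPM in placebo 3.

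Cells outside the neurons also met the same sums. In the class deposited as oligodendrocyte 15 of 462 cells did, from 10 mice, and Npy made 55 of their 60 UMIs of the 5 genes. All 15 held Pdgfra, a marker of oligodendrocyte precursors, as did 81.0% of the whole class. Mog, a gene of myelinating oligodendrocytes, was found in 1.95% of that class and in 98.9% of the class deposited as olig precursor, so the markers go against both names. Npy stood at 106 CPM in that class, above the 7.72 to 15.6 CPM of the other non-neuronal classes. In the class deposited as other 5 of 549 cells met the sums, all 5 with Cldn5, a marker of endothelial cells.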

How the results depend on the processing

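No difference in the share of interneurons between drugs passed the exact permutation test in any alternative run (adjusted p 0.571 to 1 against placebo). Its sign turned for olanzapine minus placebo with neurons thinned to 1000 UMIs (−0.872 points), and for haloperidol minus olanzapine with cells picked at 2 or more UMIs (−0.962) or among all cells (−0.292). Leaving out 1 mouse gave −1.30 to 3.68 for haloperidol minus placebo, −0.398 to 3.35 for olanzapine minus placebo and −2.06 to 2.49 for haloperidol minus olanzapine. Between interneurons and other neurons 48 of 52 named calls held in every alternative that tested the gene. Tac1, Pde1a, Crtac1 and Scn2b lost theirs in at least 1, while Gad2 (8 of 18) and Kcnc1 (7 of 18) gained a call in some. Many of the 52 were named for a large fold change or small p in this fit, which in part sets that result. Of all 893 calls, 65.7% were kept without olanzapine 5 and 71.6% at 3 or more interneurons per mouse. Each other alternative kept 74.8% or more. The replicate block left out, calls came to 400 higher and 453 lower, and 821 of the original 893 were among them. Without a filter on low counts 1294 were called lower, and leaving out 1 mouse gave 243 to 484 higher (243 without olanzapine 5) and 353 to 615 lower. Gad1 ran from −0.026 to 0.73. At least 10 interneurons per mouse could not be fitted. By drug in interneurons, with no filter, 1 gene was called higher and 1 lower for haloperidol against placebo, 2 and 2 for olanzapine against placebo, and 3 and 1 for haloperidol against olanzapine. Leaving out 1 mouse gave 0 to 3 higher and 0 to 1 lower, 0 to 9 higher and 0 to 2 lower, and 0 higher and 0 to 2 lower, in the same order; the 9 and 2 came without olanzapine 3. In all neurons with no filter, 2 genes were called higher for haloperidol against placebo, 4 lower for olanzapine against placebo, and 4 higher and 1 lower for haloperidol against olanzapine. For haloperidol against placebo Sst and Npy turned to 0.25 and 0.40 without Scrublet doublets and to 0.11 and 0.14 at 20 or more neurons per mouse. For olanzapine against placebo Npy turned to 0.18 without doublets. Leaving out 1 mouse gave, for haloperidol against placebo, Sst −0.87 to 0.62, Npy −0.48 to 0.14, Nos1 −0.86 to 1.20 and Resp18 −0.069 to 0.41. For olanzapine against placebo it gave Sst −1.01 to 0.17 and Nos1 −1.73 to 0.64. The upper ends for Sst and Nos1 came without placebo 4. The causes were not tested. Few interneurons per mouse, 0 to 20, limit what could be detected by drug.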

Other observations

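Further kinds of interneuron lay mostly outside the rule. At least 3 UMIs of the cholinergic genes Chat, Slc5a7 and Slc18a3 were held by 2 interneurons and by 10 other neurons from 5 mice. At least 3 UMIs of Th and Trh were held by 2 interneurons and by 12 other neurons from 9 mice. Kit reached 3 UMIs in 16 interneurons and 7 other neurons, and Pvalb in 4 interneurons and 0 other neurons. The rule therefore covers part of the interneurons of these libraries.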
